A study of Mus musculus with 2 samples.

Results

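The miR-26 family of the mouse comprises 3 genes in the annotation used here, Mir26b, Mir26a-1 and Mir26a-2, which were chosen by symbol from the 2202 microRNA genes counted. They were measured by microRNA-seq of hearts of female B6CASTF1/J mice, the F1 hybrids of C57BL/6J and CAST/EiJ, at 18 to 20 months of age. The labels name no treatment and no transgene. They number 2 libraries as biological replicates of 1 group. The libraries have different tissue records and the same donor record, so an SD below describes these libraries only and may be partly technical. There is no second condition, and the questions are how much each of the 3 loci yielded and how far the libraries differed. Reads were counted on mm10, the C57BL/6J genome, and the effect of CAST/EiJ variants was not tested.

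A microRNA gene is transcribed into a hairpin whose stem is cut into a 5′ arm and a 3′ arm, and the arm that is loaded into an Argonaute protein pairs with messenger RNAs mainly through its seed, bases 2 to 8. The miR-26 hairpins lie in the genes of the small C-terminal domain phosphatases Ctdsp1, Ctdsp2 and Ctdspl, enzymes that act on RNA polymerase II and on the retinoblastoma protein, and host and microRNA are known to be transcribed together. In heart and vessel, miR-26 is known as a repressor of growth and fibrosis genes, of the potassium channel gene Kcnj2 and of Smad1.

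All 3 loci matched the RefSeq sequence table (build GRCm38.p6, the assembly of mm10). The 5′ arms are shown first, because they carry the family seed and differ between the a and b forms at few bases. Capitals mark the seed.
mmu-miR-26a-5p: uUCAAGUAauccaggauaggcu
mmu-miR-26b-5p: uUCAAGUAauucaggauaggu
Counted from 1 at the 5′ end of miR-26a-5p, the substitutions to miR-26b-5p are C11U and C21U, both outside the seed, and miR-26b-5p is 21 bases long against 22. The first 20 bases differ at 1 position. Of the 1674 distinct mature mouse sequences in the table, 2 have the seed UCAAGUA, and they are these 2. miR-26a-5p is encoded at 2 hairpins, Mir26a-1 and Mir26a-2, whereas miR-26b-5p was found in the hairpin of Mir26b alone with up to 1 mismatch over its full length, and in all 3 hairpins with 2 mismatches.

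Of the mature arms, the 3′ arms are those by which the Mir26a loci can be told apart. Capitals again mark bases 2 to 8.
mmu-miR-26a-1-3p: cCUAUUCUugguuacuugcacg
mmu-miR-26a-2-3p: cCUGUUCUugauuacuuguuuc
mmu-miR-26b-3p: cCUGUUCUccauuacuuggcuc
From miR-26a-1-3p to miR-26a-2-3p there are 6 substitutions, A4G, G11A, C19U, A20U, C21U and G22C. The first of them lies in the seed, so that miR-26a-2-3p shares the seed CUGUUCU with miR-26b-3p (and with miR-6932-3p and miR-7039-3p) and miR-26a-1-3p does not. Each 3′ arm was found at 1 hairpin, also when 2 mismatches were allowed.

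A stretch of 25 bases is identical in the Mir26a hairpins, and it sets which reads can be assigned to a locus. It is shown in capitals with 5 bases of each flank.
Mir26a-1: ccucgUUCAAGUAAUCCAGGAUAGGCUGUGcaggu
Mir26a-2: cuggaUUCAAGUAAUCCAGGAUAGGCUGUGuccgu
The stretch starts at the first base of miR-26a-5p. A read of miR-26a-5p therefore fits both loci equally, even when it runs past the annotated 22 bases up to 25. Such a read maps to more than 1 place and belongs to the multimapping row of the files, not to a gene. Of the 22-base windows of each hairpin, 4 of 69 in Mir26a-1 and 4 of 63 in Mir26a-2 occur in the other Mir26a hairpin, and the remaining 65 and 59 occur in no other hairpin. In Mir26b, all 64 windows are found at that locus alone. The longest stretch that Mir26b shares is 11 bases with Mir26a-1 and 10 bases with Mir26a-2.

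**Figure D1:**
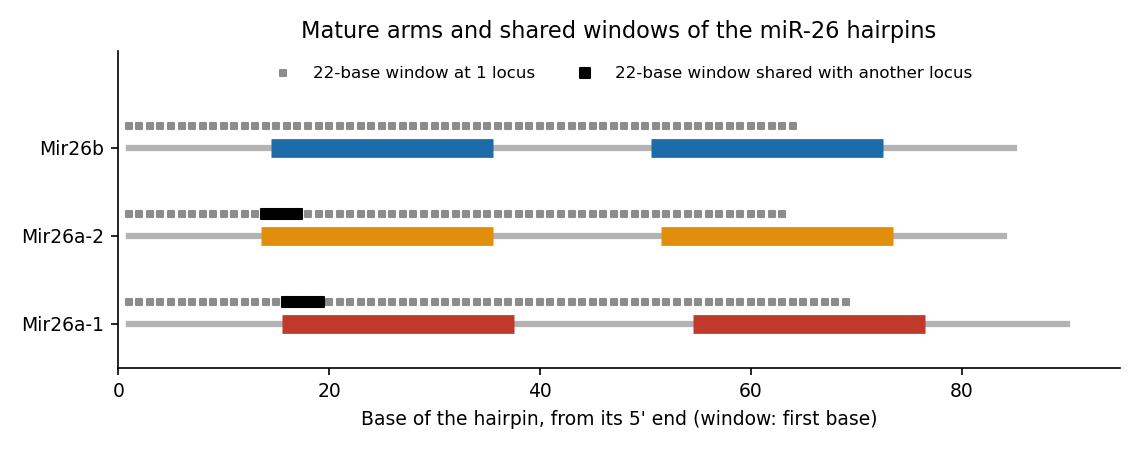
Map of the 3 miR-26 hairpins, with the position in bases from the 5′ end on the x axis. Thick bars are the mature arms, and small squares mark the first base of each 22-base window found at 1 locus. The large black squares, 4 in each Mir26a hairpin and none in Mir26b, are windows that also occur in the other Mir26a hairpin, and they start within the 5′ arm.

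Each hairpin lies on the strand of its host. Mir26b (ENSMUSG00000065468.1) occupies chr1:74394310-74394394 of mm10, in intron 4 of the main 7-exon transcript of Ctdsp1, an intron of 564 bases. Mir26a-1 (ENSMUSG00000065513.1) occupies chr9:119031796-119031885, in intron 5 of the 8-exon transcript of Ctdspl, which is 3283 bases long. Mir26a-2 (ENSMUSG00000065430.1) occupies chr10:126995530-126995613, in intron 5 of the 8-exon transcript of Ctdsp2, which is 1946 bases long. The hosts thus share the arrangement but not the distance: the hairpins start 2.80 kb (Mir26b), 105 kb (Mir26a-1) and 16.8 kb (Mir26a-2) from the start of the host gene. Another 2 annotated Ctdsp2 transcripts begin at base 126995613, the last base of the Mir26a-2 hairpin. The predicted minimum free energies of the hairpins were -43.5 kcal/mol for Mir26b, -49.4 for Mir26a-1 and -44.5 for Mir26a-2, against a median of -33.2 over all 2202 hairpins. The host messenger RNAs were not measured.

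Sense counts of microRNA genes totalled 3383676 in replicate 1 and 3676084 in replicate 2, of 9362013 and 10549508 reads. Multimapping reads took 43.9% and 43.2% of the reads, or 1.22 and 1.24 for each sense gene count. Levels are given as CPM, the counts scaled to 1000000 sense gene counts in a library. Intervals are Wilson 95% intervals, or exact ones for ratios, and cover counting error only. They take reads as independent molecules, which PCR copies are not, so they may be too narrow. Of 9 striated muscle microRNA genes, 6 had at least 10 counts in each library, and the 9 together took 0.573% and 0.492% of the counts. Most of this came from Mir499 (3977 and 3567 CPM) and Mir208a (1588 and 1247 CPM). Mir1a-1 (20 and 8 counts), Mir133a-1 (5 and 17) and Mir133a-2 (27 and 9) fell below the minimum. These 3 genes and Mir1a-2 are listed among loci that share a mature sequence with another locus. Reads of such a sequence belong to the multimapping row, so these counts and the muscle sum may be too low and are no measure of miR-1 or miR-133. No gene of any cell type list used here was at 0, hepatocyte and epithelial genes included. Counts above 0 are therefore no check of the labelled tissue. Between the libraries the summed level of 2 endothelial genes went from 12.9% to 5.77% and of 2 smooth muscle genes from 3.56% to 5.08%. That of 5 white blood cell genes went from 0.864% to 1.64% and of 3 erythroid genes from 0.418% to 0.194%. The 7 epithelial genes went from 0.0215% to 0.0829%, and the 1 hepatocyte gene from 0.00239% to 0.00171%. In bulk tissue, fewer cells of a type and less RNA per cell cannot be told apart.

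Mir26b was among the most counted microRNA genes of these hearts. It had 88730 counts, or 26223 CPM (26053 to 26394), in replicate 1 and 115813 counts, or 31504 CPM (31326 to 31684), in replicate 2. Both libraries thus gave it a like level, and it ranked 12 and 11 of 2202 genes. These ranks are by reads assigned to a gene. They leave out the multimapping reads, 43.9% and 43.2% of all reads, so loci with a shared arm may rank too low. The mean of Mir26b was 28864 ± 3735 CPM (SD, n = 2). In the order of means Mir26b stood between Mir22 (32956 ± 26062 CPM) and Mir99a (27063 ± 6291 CPM), followed by Mirlet7d (26530 ± 2335 CPM), and from none of these 3 did it differ by more than the larger of the paired SDs. Mir143, the gene above Mir22, had 38667 ± 7181 CPM and lay above Mir26b in each library, without overlap.

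Mir26a-1 and Mir26a-2, the genes of the a form, were counted at far lower levels. Mir26a-1 had 14 counts in replicate 1, or 4.14 CPM (2.46 to 6.95), and 181 counts in replicate 2, or 49.2 CPM (42.6 to 57.0). Mir26a-2 had 289 counts in replicate 1, or 85.4 CPM (76.1 to 95.8), and 139 counts in replicate 2, or 37.8 CPM (32.0 to 44.6). So Mir26a-1 was the low locus in replicate 1, and in replicate 2 it was above Mir26a-2. The means were 26.7 ± 31.9 CPM for Mir26a-1 (rank 202) and 61.6 ± 33.7 CPM for Mir26a-2 (rank 159), with SDs so large that the order of these loci, and their order among their neighbours, is not resolved. The neighbours of Mir26a-1 were Mir5099 (29.8 ± 7.07 CPM) and Mir409 (27.2 ± 3.01 CPM) above and Mir137 (26.7 ± 1.56 CPM) and Mir331 (26.4 ± 1.86 CPM) below. Those of Mir26a-2 were Mir3107 (63.8 ± 12.5 CPM) and Mir542 (62.8 ± 8.14 CPM) above and Mir101a (57.2 ± 2.35 CPM) and Mir598 (57.0 ± 7.88 CPM) below.

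Mir26b held 99.7% of the family's counts in each library (99.6 to 99.7 and 99.7 to 99.8). Its count was 293 times the sum of Mir26a-1 and Mir26a-2 in replicate 1 (exact 95% interval 262 to 329), and in replicate 2 it was 362 times that sum (324 to 405). This ratio sets a gene whose 5′ arm is unique against loci whose 5′ arm cannot be assigned, so it is no ratio of miR-26b to miR-26a. Nor is it known how many multimapping reads are miR-26a-5p. That row held 46.3 and 39.4 reads for each Mir26b count, and it is open to reads of every sequence found at several places. Of the RefSeq mature sequences, 72 were found at several non-overlapping hairpins, and copies outside the annotated hairpins were not searched. Since the counts are per hairpin, they also do not separate the 5′ arm from the 3′ arm. The 3 genes together took 2.63% of the sense gene counts in replicate 1 (2.61 to 2.65) and 3.16% in replicate 2 (3.14 to 3.18).

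The Mir26a loci exchanged places between the libraries while their sum stayed close. Together they had 303 counts, or 89.5 CPM (80.0 to 100.2), in replicate 1 and 320 counts, or 87.0 CPM (78.0 to 97.1), in replicate 2, so that the intervals overlap. Mir26a-1 supplied 4.62% of that sum in replicate 1 (2.77 to 7.61) and 56.6% in replicate 2 (51.1 to 61.9). The ratio of Mir26a-2 to Mir26a-1 was accordingly 20.6 in replicate 1 (exact 95% interval 12.1 to 38.2) and 0.768 in replicate 2 (0.611 to 0.963), and the intervals lie on either side of 1. The mean of this ratio, 10.7 ± 14.1 (n = 2), describes neither library. The log2 ratio of the sum, replicate 2 over replicate 1, was -0.04 with library totals, -0.16 with TMM scaling and -0.22 with DESeq2 size factors.

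**Figure D2:**
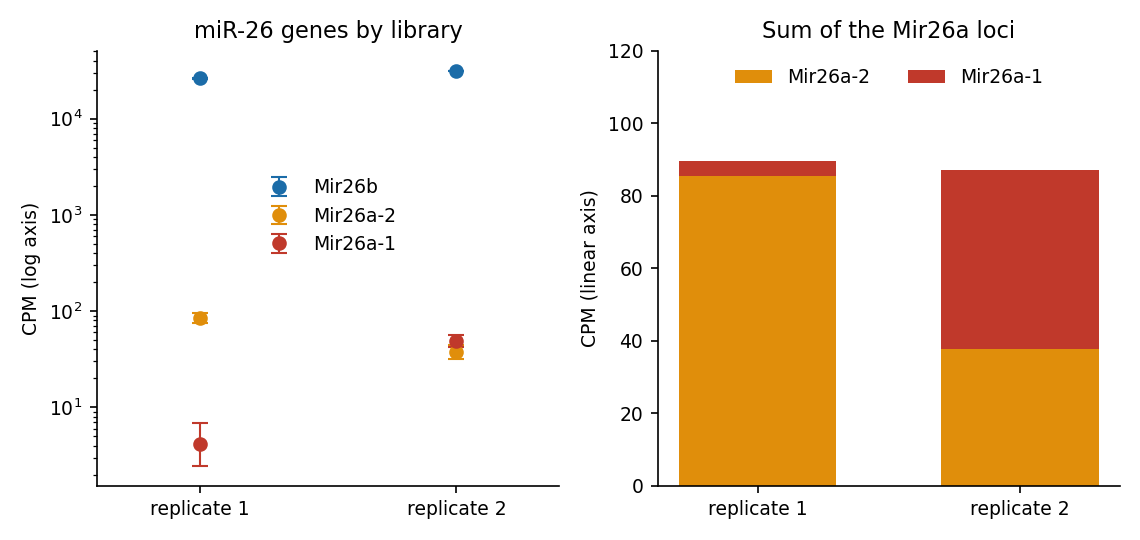
Left, CPM (log axis) of the 3 miR-26 genes in each library, with Wilson 95% intervals as bars. Right, CPM (linear axis) of Mir26a-1 stacked on Mir26a-2. Mir26b lies at 26223 and 31504 CPM, and the stacked sums are 89.5 and 87.0 CPM although Mir26a-1 makes up 4.62% of the first and 56.6% of the second.

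Each gene with at least 10 counts in each library was compared between the libraries by an exact two-sided binomial test, in which TMM set the expected share and p-values were adjusted by Benjamini-Hochberg over all 316 such genes. All 3 miR-26 genes passed this minimum, and all 3 were called, but so were 60.4% of all genes tested. The test covers counting error only. It counts reads as independent molecules, which PCR copies are not, so its p-values may be too small. Of the 316 genes, 246 lay within 2-fold. Mir26b and Mir26a-1 were higher in replicate 2, a direction called for 33.2% of the genes, and Mir26a-2 was higher in replicate 1, a direction called for 27.2%. The test compares these 2 libraries, not conditions.

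The sizes differed widely within the family. Mir26b had a log2 ratio of 0.14 for replicate 2 over replicate 1 (exact binomial test, adjusted p = 8.15e-106), against a median of 0.05 over all genes tested. That median was 0.18 with library totals and 0 with DESeq2 size factors. Mir26b lay 0.09 above it, a distance that such a scaling cannot change. Of the 316 genes, 63 had an absolute log2 ratio no larger than that of Mir26b, itself included, and among the 8 other genes within 2-fold of its level 7 had a larger one, the widest being Mir22 at -1.95. Of the genes near its level, Mir26b therefore differed less between the libraries than all but 1.

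Mir26a-1 had a log2 ratio of 3.45 (exact binomial test, adjusted p = 9.38e-32), or 10.9-fold higher in replicate 2. This was the highest positive ratio of the 316 genes, and 1 other gene, Mir215 at -4.00, had a larger absolute one. Mir26a-2 had a log2 ratio of -1.30 (exact binomial test, adjusted p = 6.73e-19), or 2.46-fold higher in replicate 1, and 42 genes, itself included, had an absolute ratio as large. The value of Mir26a-1 rests on 14 counts in replicate 1, so its size is less certain than its direction.

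**Figure D3:**
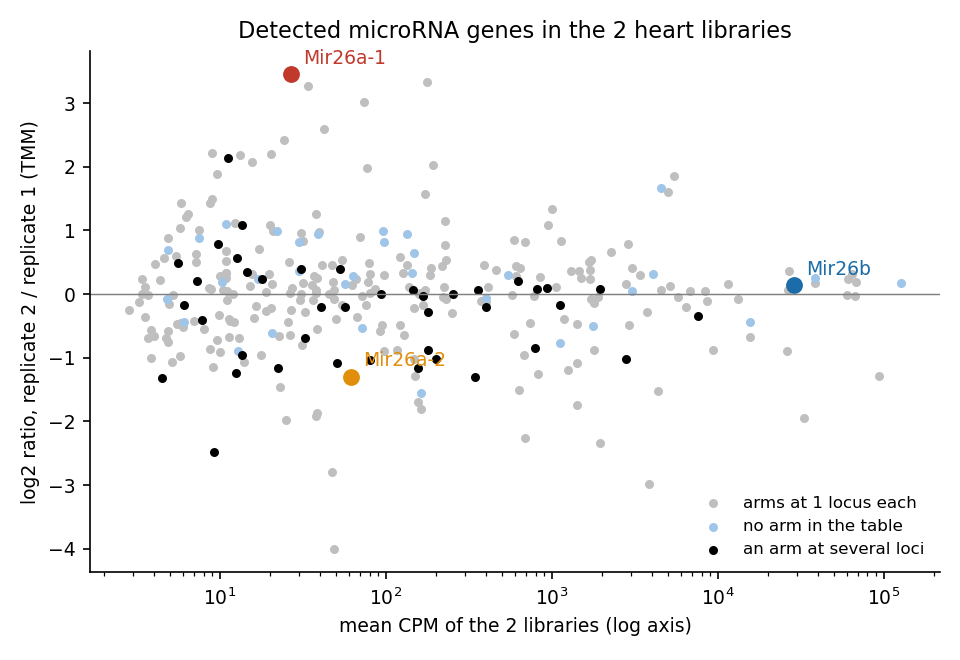
Log2 ratio of replicate 2 over replicate 1 (TMM) against mean CPM (log axis) for the 316 genes with at least 10 counts in each library, coloured by whether a mature arm is encoded at several loci. Mir26b sits near 0 at the abundant end (0.14), Mir26a-1 at the top (3.45) and Mir26a-2 below 0 (-1.30).

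Loci that share a mature sequence kept their proportions in most families, and Mir26a did not. From a list of 42 genes, in which Mir101a and Mir101b stand without a numbered partner, and the added Mir26a loci, 21 pairs could be formed, of which 16 had at least 10 counts at each locus in each library. The log2 ratio of locus 2 over locus 1 changed by -4.75 between the libraries for Mir26a, that is from 4.37 to -0.38. Among the other 15 pairs the absolute change had a median of 0.13 and ran from 0.00106 to 3.46, and 11 stayed under 0.5. In the pairs that changed least, locus 1 supplied 93.4% of Mir92 in both libraries, 81.4% and 81.8% of Mir16, 72.1% and 72.5% of Mirlet7a, and 26.4% and 26.1% of Mir30c. Other well-counted pairs moved more. In the Mir125b pair locus 1 supplied 74.6% (1614 counts) in replicate 1 and 55.0% (773 counts) in replicate 2, a change of 1.27. After Mir26a the widest change was that of the Mir218 pair, which rests on 21 and 10 counts of Mir218-1 and 13 and 68 counts of Mir218-2; with at least 50 counts at each locus (11 other pairs) the widest was 1.48, of Mir181a, a minimum that Mir26a-1 itself does not reach in replicate 1. In 3 of the 16 pairs (Mir26a, Mir218 and Mir181a) the loci were called in opposite directions. These are descriptions of 2 libraries, without a test over pairs.

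**Figure D4:**
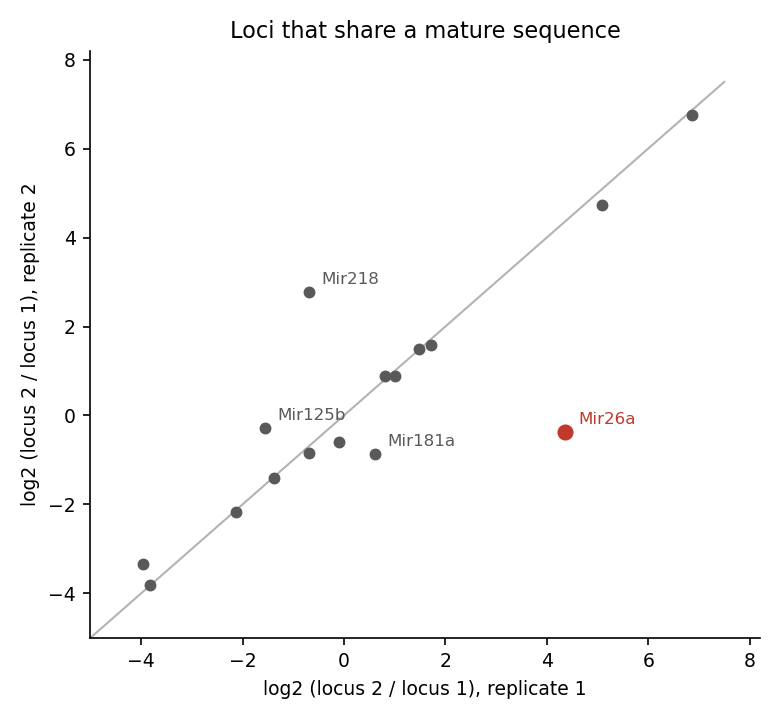
Log2 ratio of locus 2 over locus 1 in replicate 2 (y axis) against replicate 1 (x axis) for 16 pairs of loci that share a mature sequence, with the line of equal ratios. Most pairs lie on or near the line, and Mir26a (4.37, -0.38) lies farthest from it.

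The genes most like each member were taken as the 3 with the smallest Euclidean distance in log2(CPM + 1) over the 2 libraries, a likeness that rests on 2 points. For Mir26b these were Mirlet7d (distance 0.18), Mir99a (0.21) and Mir143 (0.59). For Mir26a-1 they were Mir182 (0.53, 20 and 227 counts), Mir429 (0.70, 24 and 152 counts) and Mir106a (0.80, 23 and 125 counts). That replicate 2 was their high library follows from this choice, which used the levels in both libraries. Mir182 and Mir429 are known from epithelia. Of the 7 epithelial marker genes, 6 were called higher in replicate 2, as were 33.2% of all genes tested, and none higher in replicate 1. This was not particular to epithelial genes. The 5 white blood cell genes and the 2 smooth muscle genes were also all called higher in replicate 2. Of the marker genes tested, 4 of 6 striated muscle and 3 of 3 erythroid genes were called higher in replicate 1. So were the 1 endothelial and the 1 hepatocyte gene tested, and 27.2% of all genes tested. The part of any of these genes in the value of Mir26a-1 was not tested. For Mir26a-2 they were Mir181a-2 (0.37), Mir24-1 (0.61) and Mir326 (0.68); Mir181a-2 and Mir24-1 are, like Mir26a-2, loci whose mature sequence is encoded elsewhere too.

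Other microRNAs known from heart growth and fibrosis, the setting in which miR-26 is known, were mostly higher in replicate 1. Mir26a-2 (log2 ratio -1.30) had that direction too, and Mir26b (0.14, near the median of all genes) and Mir26a-1 (3.45) did not. Of 28 listed genes 24 had enough counts, and 4 of them were called higher in replicate 2 (33.2% of all genes tested were), 16 higher in replicate 1 (27.2% of all) and 4 were not called. Their median log2 ratio was -0.24, against 0.05 over all genes tested. The split was 3 and 16 with DESeq2 size factors and 6 and 12 with library totals. The most counted were Mir378a (127632 ± 18692 CPM, log2 ratio 0.18), Mir23a (60975 ± 10926 CPM, 0.24), Mir22 (32956 ± 26062 CPM, -1.95) and Mir29a, of a family that represses collagen genes (26169 ± 9718 CPM, -0.90). Mir26b was thus near Mir29a in the mean only. In replicate 1 it lay below Mir29a (26223 against 33041 CPM), and in replicate 2 above it (31504 against 19297 CPM). Mir26b was higher in replicate 2, as were Mir378a and Mir23a, whereas Mir22 and Mir29a were higher in replicate 1.

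Vascular microRNAs split evenly. Of 16 listed genes 15 were found and 14 had enough counts; 6 were called higher in replicate 2 (33.2% of all genes tested were), 7 higher in replicate 1 (27.2% of all) and 1 was not called. The median log2 ratio of -0.12 turned to 0.00268 with library totals and to 0.11 with reads on either strand. The most counted were the endothelial Mir126a (93379 ± 50437 CPM, log2 ratio -1.28), Mir23b (64216 ± 13825 CPM, 0.32), the smooth muscle gene Mir143 (38667 ± 7181 CPM, 0.26) and Mir27b (6419 ± 247 CPM, -0.20). Mir26b lay below the first 3 of these in mean and above Mir27b.

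The list made for loci that share a mature sequence, which leaves out the Mir26a genes and also holds Mir101b, whose arms were found at 1 locus each, had 35 of 42 genes with enough counts. Of these, 7 were called higher in replicate 2 (33.2% of all genes tested were), 18 higher in replicate 1 (27.2% of all) and 10 were not called, with a median log2 ratio of -0.20. The split was 4 and 18 with DESeq2 size factors and 9 and 15 with library totals. The most counted were Mirlet7f-2 (7622 ± 833 CPM), Mir92-1 (2815 ± 1190 CPM), Mirlet7c-2 (1954 ± 187 CPM) and Mir30c-2 (1123 ± 30.1 CPM). Each exceeded the sum of the Mir26a loci in both libraries.

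No antisense read was counted at any miR-26 gene. The antisense column held 0 counts for all 3 genes in both libraries, and 0 was also the value for 285 of the 316 genes tested. Such a 0 allows up to 3 counts, or 0.887 and 0.816 CPM of the sense total. The column for reads on either strand gave the same counts as the sense column for these genes, as it did for 272 of the 316 genes tested.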

How the data were processed

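MicroRNA-seq libraries of aged mouse heart were analysed, 2 samples of 1 group. Raw counts for each microRNA gene were deposited by the authors in 3 columns, which the values show to be either-strand, sense and antisense counts. The readme texts of the deposited files name mm10 as assembly and M21 as annotation. Which aligner and counter were used is not given in the sources used here. The 4 rows that name no gene entered neither library sizes nor tests. In the sense column, unmapped, multimapping, featureless and ambiguous reads took 14.9%, 43.9%, 5.07% and 0% of replicate 1 and 16.2%, 43.2%, 5.75% and 0% of replicate 2. That multimapping reads entered no gene count is read from that row.

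All 2202 identifiers matched GENCODE M21. Hairpins came from its transcripts, and mature arms from RefSeq (GRCm38.p6), which were present for 284 of 316 genes tested. Windows were searched exactly, on both strands, in all hairpins, since no genome was used here. CPM was computed on sense gene totals. The libraries were compared by exact binomial tests scaled by TMM (edgeR 4.0.16), with DESeq2 1.42.0 size factors and library totals as alternatives, in R 4.3.3, Python 3.11.15, scipy 1.17.1, pandas 2.3.3, numpy 2.4.6 and matplotlib 3.10.9, with RNAfold 2.7.2 for energies. The test was checked on simulated data. These were independent counts, so the check does not cover PCR copies.

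Named genes are the miR-26 genes, 2 neighbours above and below each by mean CPM, the 3 most alike, and the 4 most counted of each of 3 lists (shared mature sequence, heart growth and fibrosis, vascular). Mir215, Mir181a, Mir218, Mir16, Mirlet7a, Mir125b, Mir499, Mir208a, Mir1a-1, Mir133a-1 and Mir133a-2 were named after their values were seen. The members and lists were chosen with earlier results of these data known. Alternatives were other strands, scalings, minimum counts, denominators, window lengths, a thinned library and each library left out.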

Additional observations from a re-analysis of the deposited data

How the results depend on the processing

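All 3 miR-26 genes kept their direction and call between the libraries under DESeq2 size factors, library totals, no minimum count, reads on either strand and a thinned deeper library; a minimum of 50 counts left out Mir26a-1. The number of genes called, 191, was 153 to 201 under these settings. The mean of Mir26b was 38552.5 CPM with reads on either strand, where the same counts meet a smaller total, and 10228 per 1000000 of all reads; Mir26a-2 was 22.02 on that scale. The family's share was 3.87% with reads on either strand, 1.30% with multimapping reads added to the total and 1.03% of all reads. The medians of genes with a shared arm and with single arms were 24.6 and 1.86 CPM over genes with any count, and 0 and 0.284 over all annotated genes. The widest change among the other pairs of loci was 1.48 at 50 counts, an alternative chosen after seeing the data. Values that rest on 1 library moved most: without replicate 1 or 2, the ratio of Mir26a-2 to Mir26a-1 was 0.768 or 20.6, on either side of 1, the mean of Mir26a-1 49.2 or 4.14 CPM and of Mir26a-2 37.8 or 85.4 CPM. No paired analysis was possible because there is 1 group. Depth limits Mir26a-1 most, at 14 counts in replicate 1.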

Other observations

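The class of genes with a mature arm encoded at several loci, to which Mir26a-1 and Mir26a-2 belong, was described over all genes, without a test. Of the 316 genes tested, 284 had an arm in the RefSeq table, and 43 of these had an arm at several hairpins. Their median, 57.2 CPM, lay near the 54.9 CPM of the 241 genes with arms at 1 locus each, and 0 of the 43 were above Mir26b, compared with 8 of the 241, while 4 compared with 54 were above 1000 CPM. The highest of the 43 was Mirlet7f-2 at 7622 CPM. Of the 43, 27 lay above Mir26a-1 and 20 above Mir26a-2. When the class was instead set by 20 shared bases of hairpin, 3 of 73 genes were above Mir26b, with Mir378a the highest, compared with 7 of the 243 others. The lack of shared-class genes above Mir26b thus depended on how the class was set.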
